A study of Mus musculus with 6 samples.

Results

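Reads from tRNA-Val genes were followed in mouse serum through 6 small RNA libraries made with 3 commercial kits. The members were all distinct sequences that the deposited lists class as tRNA and name by a gene for the amino acid valine. There were 7229 such entries over the 6 libraries, of 57244 tRNA entries and 101108 annotated entries in all, and a sequence that several libraries held was counted once in each. Serum came from healthy 129/SVj mice of both sexes, between 2 and 9 months old, without tumors or depletion of any RNA, and RNA was isolated from the serum of individual animals. The libraries were prepared with small RNA kits named NEBNext Multiplex (New England Biolabs), TruSeq v2 (Illumina) and TailorMix v2 (Seqmatic), 2 libraries with each, and a product size of 125 to 153 bp (adaptors included) was collected from each. The labels number the libraries of each kit as serum 1 and serum 2 without saying which mouse gave which library, so that p-values measure the spread between these libraries, which may be technical. The study compared the kits to learn how preparation changes the share of tRNA fragments in serum libraries.

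Transfer RNAs carry amino acids to the ribosome, and the anticodon in the middle of the molecule reads the codon. Mammals have valine tRNAs with the anticodons AAC, CAC and TAC, which share the amino acid and differ in the codons they read. Under stress, and in body fluids, tRNAs are found cut at the anticodon loop into stable 5′ and 3′ fragments, and 5′ fragments of a few tRNAs, tRNA-Val among them, are known to be abundant in serum. A 5′ fragment ends near the anticodon, so copies of a tRNA that differ farther downstream can give the same fragment. The deposited lists give each sequence a single gene name, and genes that share a fragment cannot be told apart by it. The anticodon and gene of a read are therefore given below as listed.

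RefSeq annotation of mouse GRCm38.p6 holds 22 nuclear tRNA-Val genes, which are 11 CAC, 8 AAC and 3 TAC genes on 9 chromosomes. Of these genes 10 lie on chromosome 13, with 5 CAC and 5 AAC genes among them. None of the TAC genes is there. They are n-TVtac1 at chr19:12011931-12012003, n-TVtac2 at chr19:12012266-12012338 and n-TVtac3 at chrX:160766110-160766182, each annotated over its 73 bases as a tRNA gene. The lists use 20 tRNA-Val gene names, 10 with CAC, 7 with AAC and 3 with TAC. The names carry a number without a chromosome and were not matched to the RefSeq genes.

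The lists held between 5144833 and 26256012 annotated reads per library, of which between 4911281 and 25976737 were tRNA reads. NEBNext had the deepest libraries and TailorMix the shallowest, so that depth and kit cannot be told apart. Replicates of a kit differed over the 21 tRNA types by more than counting noise. Chi-square divided by its degrees of freedom was 1571 for the NEBNext pair, 5217 for the TruSeq pair and 106 for the TailorMix pair, and all 6 libraries were kept as separate samples. As a check of the labelled fluid, the erythrocyte miRNA miR-451a, the hepatocyte miRNA miR-122-5p and miR-16-5p, which is abundant in blood, were present in every library. Their shares of miRNA reads ranged from 0.0566% to 3.04%, from 0.0177% to 4.09% and from 0.374% to 5.14%, respectively. These shares differed by kit. miR-451a had 2.91% and 3.04% with NEBNext and at most 0.164% with the other kits. miR-122-5p had 4.01% and 4.09% with NEBNext, 1.81% in both TailorMix libraries and at most 0.0233% with TruSeq. miR-16-5p was lowest with NEBNext, at 0.402% and 0.374%. Other fluids were not compared.

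tRNA-Val was the most abundant tRNA type in TruSeq libraries and the third in libraries of the other kits. In NEBNext libraries, 1223953 and 898950 reads were Val reads, which is 4.71% and 5.36% of tRNA reads in replicates 1 and 2. In TruSeq libraries, 3655642 and 3405951 reads were Val reads, or 32.5% and 37.3% of tRNA reads. TailorMix libraries had 210140 and 215492 Val reads, or 4.28% and 4.26% of tRNA reads. Both TruSeq libraries lay far above the other 4, and the TailorMix pair lay just below the NEBNext pair without overlap. The 95% Wilson interval of each of these shares was at most 0.0314 percentage points to either side, which is counting error only and is narrower than the gap between replicates with NEBNext and TruSeq.

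**Figure D1:**
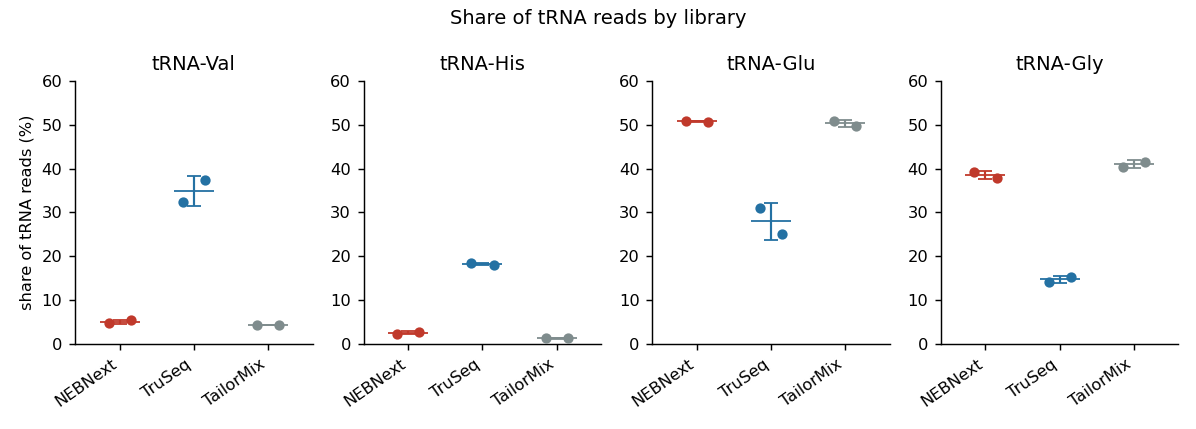
Share of tRNA reads (%, vertical axis) of tRNA-Val and of 3 other abundant types in each library (points, 2 per kit), with the kit mean (horizontal mark) and SD (error bars, n = 2). Val and His are high in both TruSeq libraries, where Glu and Gly are low.

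The mean Val share was 29.9 percentage points higher with TruSeq than with NEBNext. A two-sided exact permutation test compared the F ratio of all 3 kits over the 15 ways to group the libraries in pairs. This permutation test gave p = 0.0667, the smallest value this design allows (0.0833 after Benjamini-Hochberg adjustment over 5 tests of Val shares and sequence numbers). It covers the 3 kits together and not the difference of TruSeq and NEBNext alone. Against the tRNA reads of all other types, TruSeq libraries had 48.1 and 59.6 Val reads per 100, NEBNext libraries 4.94 and 5.67, and TailorMix libraries 4.47 and 4.44. Against miRNA reads, the kits kept this order with other gaps. There were 5.44 Val reads per miRNA read in both NEBNext libraries, 10.4 and 12.1 in TruSeq libraries, and 1.09 in both TailorMix libraries, so that NEBNext and TailorMix, which were close in the share of tRNA reads, were well apart on this scale.

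In edgeR's quasi-likelihood test scaled by each library's tRNA reads, Val reads rose 6.93-fold from NEBNext to TruSeq (log2 fold change 2.79, standard error 0.12, edgeR adjusted p = 4.17e-31). From TruSeq to TailorMix they fell 8.18-fold (log2 fold change -3.03, standard error 0.12, edgeR adjusted p = 1.75e-33). Between TailorMix and NEBNext the log2 fold change was -0.24 (standard error 0.11, edgeR adjusted p = 0.0508), which did not pass the threshold of 0.05. It passed without NEBNext replicate 1 (-0.33) and without either TruSeq library (-0.24). An adjusted p here rests on a spread shared across the 21 types. Its size is not comparable with the adjusted p of the anticodons below. From NEBNext to TruSeq, His over types and His-GTG over anticodons had the same log2 fold change of 2.84. Their edgeR adjusted p was 1.84e-30 and 0.000117, respectively. Calls were common among tRNA types. Of the 21 types, 18 (85.7%) were called from NEBNext to TruSeq, 14 (66.7%) from NEBNext to TailorMix and 19 (90.5%) from TruSeq to TailorMix, so that a call for Val is close to the background. Among the 7 types that rose from NEBNext to TruSeq, Val rose second most, after His, while 4 types fell by more than Val rose.

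Shares of a total are tied to each other, and the scaling moved all types together. The median log2 fold change of the 21 types from NEBNext to TruSeq was -0.86 with tRNA reads as library size and 0.55 with TMM normalization, and Val was then at 4.21. Scaling shifts the log2 fold change of every type by nearly the same amount, so that Val relative to the median type is nearly fixed. Val was higher than this median by 3.65 with tRNA totals and by 3.66 with TMM. From NEBNext to TailorMix the median moved from -0.11 to 1.40 and Val from -0.24 to 1.26, a turn of its direction, while Val relative to the median was at -0.13 on both scales. From TruSeq to TailorMix Val relative to the median was at -3.88 on both scales. The split of called types into higher and lower changed as well, though not in every comparison. From NEBNext to TruSeq it was 7 higher and 11 lower (11 and 7 with TMM). From NEBNext to TailorMix it was 6 and 8 (16 and 4 with TMM). From TruSeq to TailorMix it was 12 and 7, the same with TMM. With DESeq2 the splits were 9 and 10, 6 and 7, and 7 and 8, respectively.

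**Figure D2:**
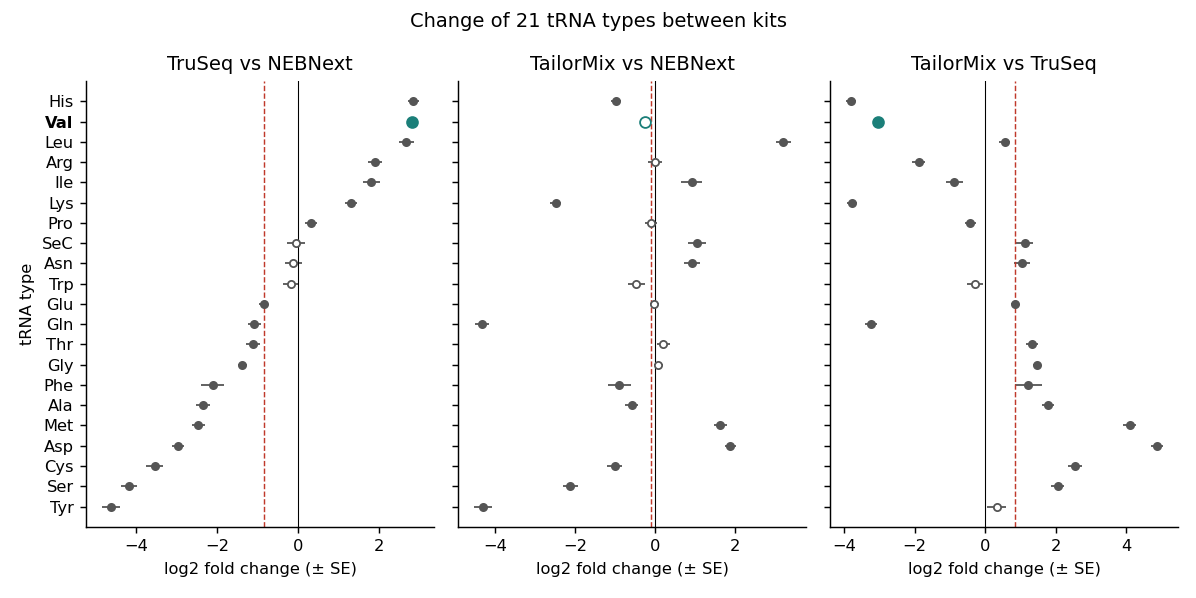
Log2 fold change of each of 21 tRNA types (horizontal axis, error bars are standard errors, edgeR with tRNA reads as library size) between pairs of kits. Val is the large green point, filled points have an adjusted p under 0.05, and the dashed line is the median type. Val lies next to His at the top from NEBNext to TruSeq and near the median type from NEBNext to TailorMix.

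The study depleted serum RNA of tRNA types that its text names by glutamine, glycine, valine and histidine. In the deposited lists the most abundant type beside Gly, Val and His was named Glu, the code for glutamate, so Glu, Gly and His were compared with Val here. Among these 3 types, with tRNA reads as library size, 1 rose and 2 fell from NEBNext to TruSeq, with a median log2 fold change of -0.86 beside the same median over all 21 types. From NEBNext to TailorMix none rose, 1 fell and 2 did not pass the test (median -0.012, beside -0.11 over all types), and from TruSeq to TailorMix 2 rose and 1 fell (median 0.85, the same as over all types). Of these 3 types, His, the acceptor of histidine, moved most like Val in the comparisons with TruSeq. Its log2 fold changes were 2.84 from NEBNext to TruSeq and -3.81 from TruSeq to TailorMix. From NEBNext to TailorMix the log2 fold change of His was -0.97, which passed the test, and it turned to 0.53 with TMM. Val reads per His read were 2.04 and 1.91 in the NEBNext pair, 1.76 and 2.06 in the TruSeq pair, and 3.42 and 3.15 in the TailorMix pair. The ratio thus overlapped between NEBNext and TruSeq, where Val rose 6.93-fold and His 7.15-fold, and was higher in both TailorMix libraries.

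Glu and Gly, the most abundant types with NEBNext and TailorMix, took a smaller share of tRNA reads with TruSeq. Their log2 fold changes from NEBNext to TruSeq were -0.86 and -1.39 with tRNA reads as library size, but 0.55 and 0.027 with TMM. The ratio of Val to each of them does not depend on the scaling. Val reads per Glu read were 0.0926 and 0.106 for NEBNext, 1.05 and 1.49 for TruSeq, and 0.0840 and 0.0856 for TailorMix. Val reads per Gly read were 0.120 and 0.142 in the NEBNext pair, 2.29 and 2.45 in the TruSeq pair, and 0.106 and 0.102 in the TailorMix pair. Only with TruSeq did Val reads outnumber those of Glu and of Gly, and this held in both of its libraries.

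Leucine and isoleucine are the other branched-chain amino acids, and their tRNA types were both called in each comparison. From NEBNext to TruSeq both rose, Leu 6.36-fold and Ile 3.48-fold, and from NEBNext to TailorMix both rose as well, 9.31-fold and 1.89-fold, where Val did not pass the test. From TruSeq to TailorMix the log2 fold change was 0.55 for Leu and -0.88 for Ile, and that of Leu was -0.027 with DESeq2. The medians of both types were 2.23, 2.07 and -0.16 in these comparisons, beside -0.86, -0.11 and 0.85 over all 21 types. Both were scarce, with Leu between 0.0229% and 0.224% and Ile between 0.000493% and 0.00206% of tRNA reads. Across the 6 libraries, the types whose log2 share ran most like that of Val were Arg (Pearson r = 0.989) and His (r = 0.983), and the type that ran most against it was Gly (r = -0.996). These are descriptions of 6 points in 3 kits that share their totals of tRNA reads. The share of Arg was between 0.0106% and 0.0475% of tRNA reads, far below that of Val.

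Val reads lay on few of their many distinct sequences. There were 1410 and 1292 distinct Val sequences for NEBNext, 1610 and 1587 for TruSeq, and 652 and 678 for TailorMix. TruSeq libraries had the most Val sequences and also the most Val reads, while NEBNext libraries had more tRNA reads. Whether the number of Val sequences followed the depth of Val reads was not tested. Val sequences made up 11.4% and 11.5% of all distinct tRNA sequences in the NEBNext pair, 17.0% and 17.8% in the TruSeq pair, and 8.64% and 8.80% in the TailorMix pair. Between 32.0% and 37.0% of the Val sequences of a library were seen with a single read, which is near the range for Glu, Gly and His together (33.1% to 38.2%). A Val sequence had on average 868 and 696 reads with NEBNext, where other tRNA sequences had 2262 and 1595. With TruSeq the order was turned, at 2271 and 2146 reads per Val sequence and 965 and 779 for other tRNA sequences. With TailorMix a Val sequence had 322 and 318 reads, below the 682 and 690 of other tRNA sequences.

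The leading sequences together held nearly the same share in every library, but divided it differently by kit. The 4 most abundant Val sequences held 80.5% and 80.9% of Val reads for NEBNext, 82.4% and 82.6% for TruSeq, and 80.5% and 80.7% for TailorMix. The most abundant alone held 25.6% and 24.5% with NEBNext, 37.6% and 41.3% with TruSeq, and 51.3% in both TailorMix libraries, with no overlap between kits. The number of sequences that reached 50% of Val reads was 3 for each library of NEBNext, 2 for each of TruSeq and 1 for each of TailorMix. NEBNext replicate 1 had 3 leading sequences of like size, at 25.6%, 22.4% and 21.9% of Val reads, followed by 10.6% for the next. TruSeq replicate 1 had a leading pair at 37.6% and 36.2%, followed by 4.47%. TailorMix replicate 2 had a leading sequence at 51.3%, followed by 21.9% and 4.59%. The other replicates of TruSeq and TailorMix had the same pattern of steps. NEBNext replicate 2 had 24.5%, 21.3%, 20.7% and 14.4%, followed by 3.02%, so that its largest step came after the fourth sequence.

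**Figure D3:**
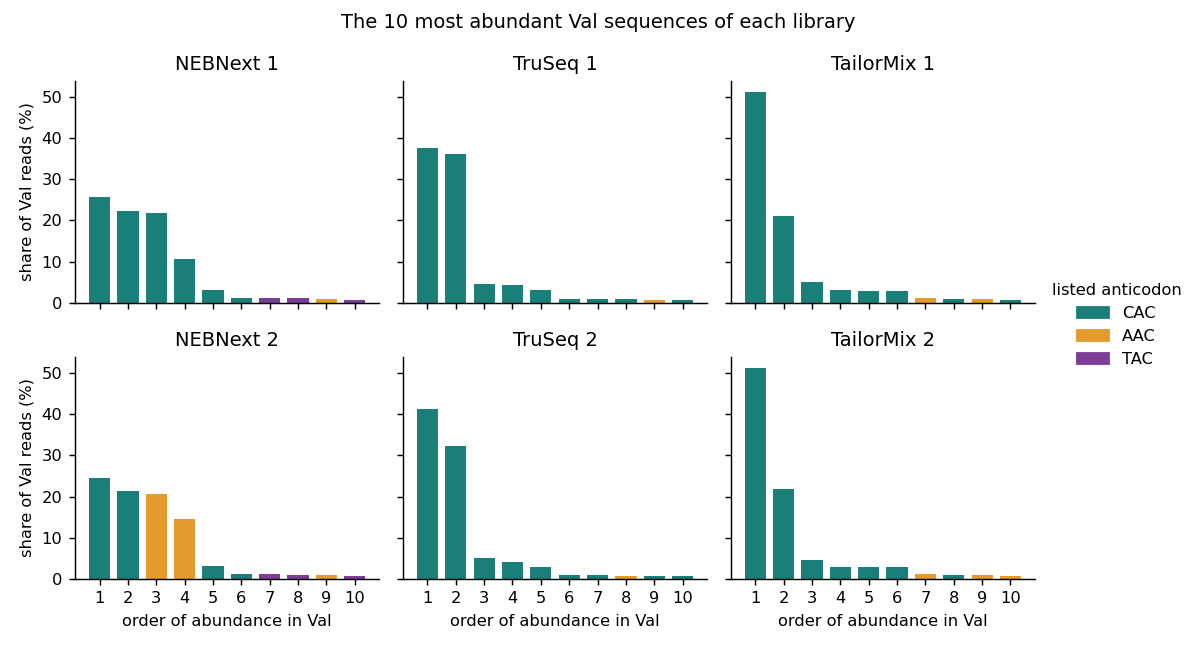
Share of Val reads (%, vertical axis) of the 10 most abundant Val sequences in each library, in order of abundance and coloured by listed anticodon. Steps fall after 4 sequences with NEBNext (in replicate 1 also after 3) and after 2 with TruSeq. TailorMix has a single leading sequence with 51.3% of Val reads. In NEBNext replicate 2 the third and the fourth sequence are listed as AAC, where replicate 1 has CAC.

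To reach 90% of Val reads took 13 sequences in both NEBNext libraries, 12 and 11 in TruSeq libraries, and 11 in each TailorMix library. The means of NEBNext and TruSeq differed by 1.5 sequences, and the exact permutation test over all 3 kits gave p = 0.200 (adjusted p = 0.2). Gly took fewer sequences to reach 90%, between 5 and 10, and Glu between 9 and 14. His took 20 and 22 with NEBNext but 7 and 8 with TruSeq, a far wider range over the kits than that of Val. In TruSeq replicate 2, the leading Val sequence had 1406927 reads, which was 15.4% of tRNA reads and the most of any tRNA sequence of that library. The leading Val sequence was the second most abundant tRNA sequence in TruSeq replicate 1, with 12.2% of tRNA reads, and the tenth in each library of NEBNext and TailorMix, where it had between 1.21% and 2.20%.

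By listed anticodon, CAC held most Val reads in every library, and TAC fewest. CAC had 90.5% and 54.5% of Val reads in the NEBNext pair, 95.5% and 95.2% in the TruSeq pair, and 94.2% and 94.3% in the TailorMix pair. NEBNext replicate 2 stood apart from the other 5 libraries. AAC had 5.65% and 41.7% of Val reads for NEBNext, 3.60% and 4.03% for TruSeq, and 5.39% and 5.28% for TailorMix. TAC had 3.83% and 3.77% in the NEBNext pair, 0.942% and 0.718% in the TruSeq pair, and 0.414% and 0.453% in the TailorMix pair, so that the replicates of a kit lay close and the kits did not overlap.

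The gap between the NEBNext replicates lay in 2 sequences. The third and the fourth most abundant Val sequences of replicate 2, with 185828 and 129803 reads, were listed under tRNA208-ValAAC and tRNA48-ValAAC. At the same places in replicate 1, 267472 and 129409 reads were listed under tRNA966-ValCAC. The shares of Val reads at these places were 20.7% and 14.4% in replicate 2 and 21.9% and 10.6% in replicate 1. The letters of the sequences were not analysed here, and whether the replicates hold the same sequences under other names was not tested. CAC and AAC together were at 96.2% of Val reads in both NEBNext libraries, at 99.1% and 99.3% with TruSeq, and at 99.6% and 99.5% with TailorMix.

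Without the 4 most abundant Val sequences of each library, a limit chosen after these values were seen, the NEBNext replicates lay closer in CAC and AAC, while the TruSeq replicates lay farther apart in each anticodon. CAC was then at 51.5% and 45.7% of the remaining Val reads with NEBNext, at 74.1% and 72.6% with TruSeq, and at 70.3% in both TailorMix libraries. AAC was at 28.9% and 34.6% for NEBNext, at 20.5% and 23.2% for TruSeq, and at 27.6% and 27.3% for TailorMix. TAC was at 19.6% and 19.7% in the NEBNext pair, at 5.37% and 4.14% in the TruSeq pair, and at 2.12% and 2.35% in the TailorMix pair. The order of kits in TAC was thus the same with and without the leading sequences.

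**Figure D4:**
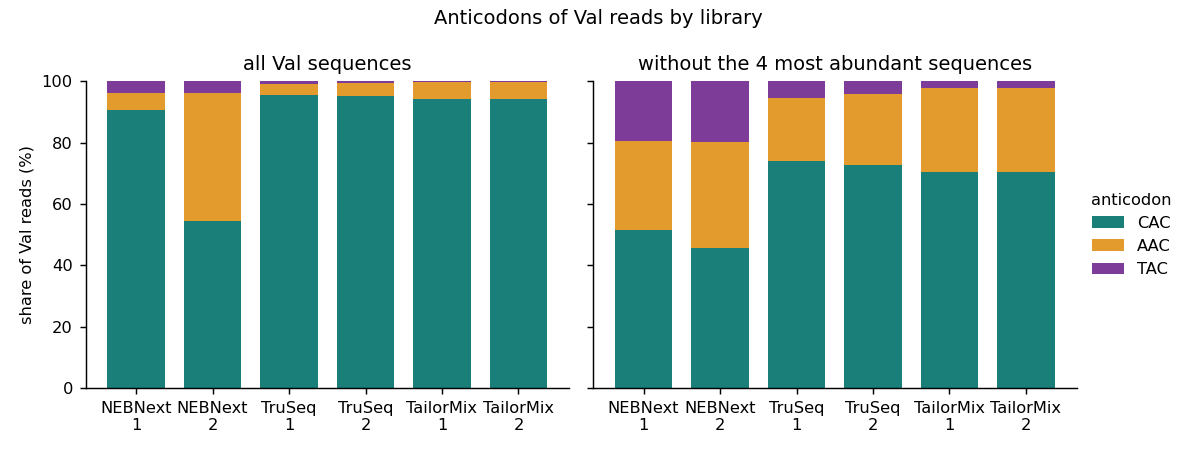
Share of Val reads (%, vertical axis) by listed anticodon in each library, over all Val sequences (left) and without the 4 most abundant of each library (right). On the left NEBNext replicate 2 stands apart with 41.7% AAC, and on the right both NEBNext libraries have over 19% TAC, where the other 4 have at most 5.37%.

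The differences in mix from NEBNext to TruSeq were 22.8 percentage points for CAC, -19.9 for AAC and -2.97 for TAC. For each anticodon, the two-sided exact permutation test of all 3 kits over 15 groupings gave p = 0.0667 (adjusted p = 0.0833). This is the smallest p that 6 libraries in pairs can give, and it does not test NEBNext against TruSeq alone. The CAC and AAC differences rest on NEBNext replicate 2, and without it they were 4.83 and -1.83 percentage points. The TAC difference lay between -3.08 and -2.86 with any 1 library left out.

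Counted against all tRNA reads, the high level of Val with TruSeq lay in reads listed as Val-CAC. Val-CAC had 4.27% and 2.92% of tRNA reads for NEBNext, 31.0% and 35.6% for TruSeq, and 4.03% and 4.01% for TailorMix. In edgeR's test over 47 anticodons, Val-CAC rose 9.26-fold from NEBNext to TruSeq (log2 fold change 3.21, standard error 0.21, edgeR adjusted p = 0.000212). That log2 fold change was 2.96 without NEBNext replicate 2, which had the high AAC share, and 3.51 without NEBNext replicate 1. CAC and AAC together had 4.53% and 5.16% of tRNA reads for NEBNext and 32.2% and 37.1% for TruSeq. From TruSeq to TailorMix, Val-CAC fell (log2 fold change -3.05, standard error 0.21, edgeR adjusted p = 0.000261). Between TailorMix and NEBNext the log2 fold change was 0.16 (edgeR adjusted p = 0.515), which was 0.46 and passed the test without NEBNext replicate 1, and was -0.085 without NEBNext replicate 2. Of the anticodons tested, 61.7% were called from NEBNext to TruSeq, 61.7% from NEBNext to TailorMix and 63.8% from TruSeq to TailorMix.

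Val-TAC differed from Val-CAC in which kit was low. It had 0.180% and 0.202% of tRNA reads in the NEBNext pair, 0.306% and 0.268% in the TruSeq pair, and 0.0177% and 0.0193% in the TailorMix pair, where only 869 and 977 reads were counted. Both TailorMix libraries were thus far below the NEBNext pair, by 10.3-fold in the fit, although the 2 kits were close in Val-CAC. The log2 fold change of Val-TAC was -3.37 from NEBNext to TailorMix (standard error 0.23, edgeR adjusted p = 0.000347) and -3.96 from TruSeq to TailorMix (standard error 0.23, edgeR adjusted p = 0.000155). From NEBNext to TruSeq it was 0.59 (standard error 0.21, edgeR adjusted p = 0.0605), and this passed the threshold with DESeq2, with TMM and with tRNA reads other than Val as library size, at 1.13 to 1.42.

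Val-AAC had 0.266% and 2.24% of tRNA reads for NEBNext, 1.17% and 1.51% for TruSeq, and 0.231% and 0.225% for TailorMix. The NEBNext values lay on either side of the TruSeq pair and above the TailorMix pair. No contrast of Val-AAC passed the test over 47 anticodons. The log2 fold changes were 0.10 from NEBNext to TruSeq (standard error 0.94), -2.46 from NEBNext to TailorMix (standard error 0.99) and -2.56 from TruSeq to TailorMix (standard error 1.00), with edgeR adjusted p of 0.923, 0.0842 and 0.0783. Without NEBNext replicate 2 the first was 2.33 and passed the test, and without NEBNext replicate 1 it was -0.74. The second passed without NEBNext replicate 1 (-3.30), and the third without either NEBNext library (-2.56).

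The kits also differed in how the distinct Val sequences were divided over the anticodons, less in AAC than in TAC. Val-TAC made up 28.7% and 27.5% of distinct Val sequences in the NEBNext pair, at most 15.7% in the TruSeq pair, and 16.3% and 17.0% in the TailorMix pair, far above its share of reads in each library. Val-AAC made up between 27.5% and 32.5% in all 6 libraries, NEBNext replicate 2 included, where it had 30.0%. Outside that library Val-AAC had at most 5.65% of Val reads, so a sequence share above the read share was not particular to Val-TAC. The leading Val-TAC sequence held 27.8% of Val-TAC reads in both NEBNext libraries, 42.5% and 41.9% with TruSeq, and 15.4% and 13.9% with TailorMix. The leading sequence thus held the least of Val-TAC reads in TailorMix libraries, where only 869 and 977 such reads were counted. The leading Val-CAC sequence, as listed, held the most there, with 54.5% and 54.4% of Val-CAC reads. It held 28.3% and 44.9% with NEBNext, and 39.3% and 43.4% with TruSeq.

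Of the 20 listed gene names, 19 had reads in all 6 libraries, and tRNA976-ValCAC had a single read in each of 2 libraries. tRNA966-ValCAC had the highest median, 39.5% of Val reads, with a range from 10.7% to 85.8%. It was the listed name of 2 of the 3 leading sequences in NEBNext replicate 1, of all 3 in TruSeq replicate 1 and of 2 in TailorMix replicate 1, but of 1 in NEBNext replicate 2, 1 in TruSeq replicate 2 and none of those in TailorMix replicate 2. The other listed names among the 3 leading sequences were tRNA284-ValCAC and tRNA208-ValAAC for NEBNext, tRNA204-ValCAC and tRNA710-ValCAC for TruSeq, and tRNA284-ValCAC, tRNA710-ValCAC, tRNA91-ValCAC and tRNA204-ValCAC for TailorMix.

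Replicates of a kit could list nearly equal read numbers at the same place under different names. The leading sequence of TailorMix replicate 1, with 107867 reads, was listed under tRNA284-ValCAC, and that of replicate 2, with 110607 reads, under tRNA710-ValCAC. As a result tRNA284-ValCAC had 54.4% of Val reads in the first and 0.203% in the second, a ratio of 267. The largest ratio between replicates was 83.5 with TruSeq, for tRNA204-ValCAC, and 33.9 with NEBNext, for tRNA208-ValAAC. Of the 19 names with reads in both replicates, 7 differed by over 2-fold in the NEBNext pair, 11 in the TruSeq pair and 9 in the TailorMix pair. Levels by gene name were therefore not tested between kits, and shares by name are given as listed.

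Some names were stable, and 4 of them stayed within 1.6-fold between the replicates of every kit, a limit set after the values were seen. These were tRNA95-ValAAC, tRNA391-ValCAC, tRNA986-ValAAC and tRNA10-ValCAC. tRNA391-ValCAC had between 0.121% and 0.243% of Val reads over all 6 libraries, and its highest share was 2.00 times its lowest, the smallest such ratio among the 19 names. tRNA95-ValAAC had 0.647% and 0.662% of Val reads for NEBNext, 0.0693% and 0.0716% for TruSeq, and 0.130% and 0.129% for TailorMix, so that the replicates of a kit differed at most 1.03-fold.

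**Figure D5:**
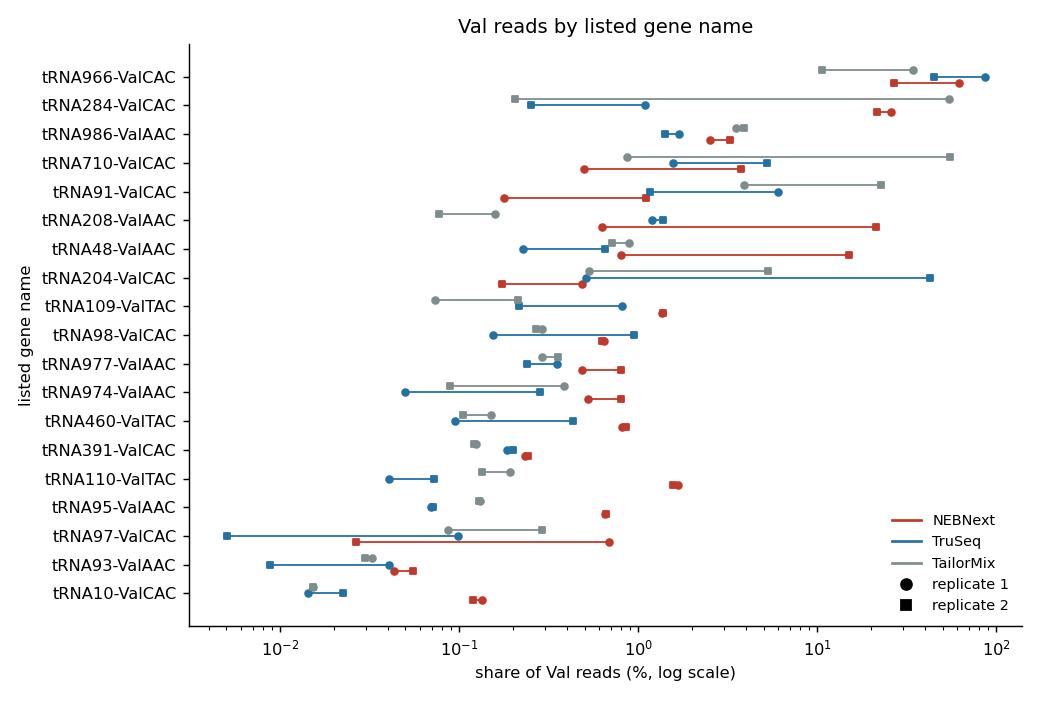
Share of Val reads (%, log axis) listed under each of the 19 gene names with reads in every library, with circles for replicate 1, squares for replicate 2 and a line joining the replicates of a kit. Long lines mark names such as tRNA284-ValCAC, whose replicates differ 267-fold with TailorMix, and short lines those such as tRNA391-ValCAC.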

How the data were processed

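Small RNA of mouse serum was sequenced in 6 libraries, 2 for each of 3 kits, grouped by their labels. The deposited values are raw read counts of the authors, with no normalization, per miRNA and per distinct sequence of other RNA classes. The authors trimmed adaptors (cutadapt 1.8.1), mapped reads without mismatches (Bowtie 1.1.2) and annotated them by position on GRCm38. How reads of several equal genes were named is not given in the sources used here, and reads outside the annotations were not analysed here. The number beside each sequence in the deposited lists orders it by falling count within its library and links no sequences between libraries.

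Reads were summed by tRNA type, anticodon and listed gene name (Python 3.11.15, pandas 2.3.3, numpy 2.4.6, scipy 1.17.1, matplotlib 3.10.9). The 21 types and the 47 anticodons that reached 4 counts in 2 or more libraries were tested over all 6 libraries with edgeR 4.0.16 (R 4.3.3, glmQLFit and glmQLFTest, kit as the only term, tRNA reads as library size, Benjamini-Hochberg adjustment), which borrows the spread across features. Standard errors are the absolute log2 fold change over the square root of F. The script was tested on simulated counts. Shares and sequence numbers were compared over all 3 kits by exact permutation of the F ratio. Intervals cover counting error only, since PCR copies were not marked by molecular identifiers. Alternatives were DESeq2 1.42.0, TMM, other library sizes, a count minimum, fits of 1 contrast, a replicate block and libraries left out. Named were Val, its anticodons, the listed genes of the 3 leading Val sequences per library, Glu, Gly, His, Leu, Ile, and the 2 types most like Val and the 1 least like it. Members and lists were chosen with earlier results of these data known.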

Additional observations from a re-analysis of the deposited data

Results flagged for a closer look

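A small set of sequences was listed as both piRNA and tRNA, without an amino acid, and entered no comparison. It had 182 and 125 reads in the NEBNext libraries, 5 in TruSeq replicate 1, and 60 and 41 in the TailorMix libraries, each above the 3 counts taken as the floor, and none were listed for TruSeq replicate 2. Whether any of these reads came from tRNA-Val was not tested.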

How the results depend on the processing

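Of 165 alternative values for the 12 log2 fold changes of Val and its anticodons, 143 kept their direction and their side of the threshold, and 6 of the 12 did so under every alternative run. The 6 counts of calls stayed within 1.5 times their value. The 5 permutation tests cannot reach 0.05, so that their p says nothing of stability. Without NEBNext replicate 2 the differences from NEBNext to TruSeq were 4.83 points for CAC (22.8 with it) and -1.83 for AAC (-19.9 with it). Val reads from NEBNext to TailorMix (-0.24) turned to 1.26 with TMM, and passed the threshold at -0.29 with all annotated reads as library size and at -0.24 in a fit of those 4 libraries only. Leaving out a library gave -0.33 to -0.14, and it passed without NEBNext replicate 1 or either TruSeq library. From NEBNext to TruSeq, Val-TAC passed at 1.17 with DESeq2, 1.42 with TMM and 1.13 with tRNA reads other than Val as library size. Val-AAC passed from NEBNext to TailorMix with DESeq2 (-2.28), and from TruSeq to TailorMix with DESeq2 (-3.02), TMM (-3.16), tRNA reads other than Val (-3.12) and the 4 libraries only (-2.56). With a library left out, Val-AAC ranged from -0.74 to 2.33 from NEBNext to TruSeq, from -3.30 to -0.22 from NEBNext to TailorMix and from -2.73 to -2.36 from TruSeq to TailorMix, and Val-CAC from NEBNext to TailorMix from -0.085 to 0.46. Without NEBNext replicate 1, Val-AAC passed in both contrasts with TailorMix and Val-CAC passed at 0.46. Without NEBNext replicate 2, Val-AAC passed at 2.33 from NEBNext to TruSeq and also from TruSeq to TailorMix, and Val-CAC turned to -0.085. Val from NEBNext to TruSeq ranged from 2.69 to 4.21 over all alternatives, and from TruSeq to TailorMix from -3.64 to -2.93. The cause of these changes was not tested.

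Deviations of same-numbered libraries over the tRNA types correlated at 0.200, 0.0508 and 0.118 for the 3 pairs of kits. Over 46 anticodons the correlations were 0.0457, -0.369 and -0.102. The numbers were not taken to pair the libraries, although such correlations cannot show whether same-numbered libraries came from the same mouse. With the replicate number as a block, Val was at 2.79, -0.23 and -3.03 for NEBNext to TruSeq, NEBNext to TailorMix and TruSeq to TailorMix, and the calls of Val and its anticodons were unchanged. Called types from NEBNext to TruSeq went from 18 to 17, and called anticodons from 29, 29 and 30 to 27, 27 and 31.

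Pairs of libraries cannot reach 0.05 by permutation, and an adjusted p in the text rests on the spread shared across types or anticodons. Val-TAC had the fewest reads of the Val anticodons, 869 and 977 with TailorMix, far above the floor of 3.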
